A study of Homo sapiens with 6 samples.

Results

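Chromosome 5 of T47D cells, an estrogen receptor-positive breast cancer line, was followed from parental cells to tamoxifen-resistant (TamR) cells. Its members were chosen by position: all 100 Kb bins of chromosome 5 with a compartment score other than 0 in all 6 libraries, which made 1758 of the 1810 bins that the files hold for the chromosome, and 1758 of the 27898 bins scored in all 6 libraries genome-wide. The chromosome itself was chosen for its measured change in A share from T0 to TamR, so each comparison of T0 with TamR below is a description of these libraries and was not tested. The short arm (5p) held 463 of the scored bins and the long arm (5q) held 1295.

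The study asked how chromatin compartments move after estradiol (E2) and in endocrine resistance. Tethered chromatin capture (TCC), a form of Hi-C that counts contacts between pairs of genomic regions, was run on parental T47D cells starved of hormone for 72 h (T0), on starved cells given 100 nM E2 for 1, 4, 16 or 24 h (T1, T4, T16 and T24), and on TamR T47D cells. The labels list T0 and TamR as untreated, while the methods describe TamR cells as grown in charcoal-stripped medium with 100 nM tamoxifen. Each condition has 1 library, so condition and library cannot be told apart, no p-value is given, and TamR is set beside the range or the mean of the 5 parental libraries or beside T0, as stated. A score averages over the cells of a library, so a weak change in all cells and a strong change in some of them cannot be told apart. No RNA was used here, so the labels were not checked against marker genes.

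In interphase nuclei, active gene-rich chromatin (compartment A) contacts other active chromatin more often than it contacts inactive, gene-poor chromatin (compartment B), which tends to lie at the nuclear lamina. Compartments are read from the first eigenvector of the contact matrix, where a positive score places a bin in A and a negative score in B. Chromosome 5 is a long chromosome with large gene deserts, a gene-rich 5q31 that holds the type 2 cytokine cluster and the clustered protocadherins, and a gene-rich distal end of 5q. Scores below are the deposited values multiplied by 1000. Their squares sum to about 1 over each library, so only the position of a bin among those of the same library has meaning.

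Promoter sequences are shown for 3 listed genes whose starts lay in the longest blocks that changed compartment, since these are regulatory sequences that ended in the other compartment in TamR. PIK3R1 encodes the p85α regulatory subunit of phosphoinositide 3-kinase (PI3K), and its 250 bases before the start are at chr5:67511318-67511567 on the plus strand. KCNIP1, a modulator of voltage-gated potassium channels, has its 250 bases at chr5:169780241-169780490, plus strand. PRKAA1, the catalytic α1 subunit of AMP-activated protein kinase, has them at chr5:40798477-40798726 on the minus strand. All were read 5′ to 3′ from the GRCh37 (hg19) sequence at the GENCODE gene start, and capitals mark CpG dinucleotides.
PIK3R1: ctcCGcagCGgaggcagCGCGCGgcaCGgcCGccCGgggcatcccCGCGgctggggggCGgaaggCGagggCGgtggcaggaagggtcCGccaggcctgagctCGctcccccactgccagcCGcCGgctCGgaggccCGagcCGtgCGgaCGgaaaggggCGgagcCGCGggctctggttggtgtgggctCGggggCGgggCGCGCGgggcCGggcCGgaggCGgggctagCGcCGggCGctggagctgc
KCNIP1: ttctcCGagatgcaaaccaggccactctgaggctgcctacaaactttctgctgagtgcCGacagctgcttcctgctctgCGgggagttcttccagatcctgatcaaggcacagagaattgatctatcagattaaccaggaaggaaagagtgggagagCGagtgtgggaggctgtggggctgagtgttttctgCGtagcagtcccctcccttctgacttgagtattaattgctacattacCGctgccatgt
PRKAA1: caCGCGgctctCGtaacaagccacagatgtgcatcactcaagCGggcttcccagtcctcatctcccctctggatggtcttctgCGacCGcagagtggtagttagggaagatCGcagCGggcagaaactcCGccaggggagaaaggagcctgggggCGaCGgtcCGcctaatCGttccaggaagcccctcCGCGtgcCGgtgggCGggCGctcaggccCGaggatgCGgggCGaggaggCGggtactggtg

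These promoters differed widely in CpG content. The PIK3R1 promoter held 36 CpG and was 81.6% G or C, and the PRKAA1 promoter held 22 CpG. The KCNIP1 promoter held 6, against a median of 14 over the 884 protein-coding gene promoters of the chromosome. Over the 59 promoters that went from A to B the median was 13 CpG, and over the 13 that went from B to A it was 19. The motif GGTCA (an arm of the estrogen response element) on either strand was in 31.2% of the 884 promoters and in 14 of the 59 promoters (23.7%) that went from A to B, and in none of the 3 shown. The full element GGTCANNNTGACC was in 0 of the 884, and the forkhead motif TGTTTAC was in 2.38%.

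The A share of chromosome 5 was lowest in TamR. A bins numbered 751 of 1758 at T0 (42.7%, 95% Wilson interval 40.4 to 45.0%), 718 at T1, 739 at T4, 716 at T16, 653 at T24 (37.1%, 34.9 to 39.4%) and 589 in TamR (33.5%, 31.3 to 35.7%). The intervals cover counting error over bins only and are too narrow, because neighbouring bins are not independent. TamR lay 3.64 percentage points below the lowest parental library. From T0 to TamR the change was −9.22 points, the largest fall of the 23 chromosomes, and the next was −2.66 points on chromosome 15. Over the other 22 chromosomes the A share went from 46.4 to 48.5%. It was lower in TamR than at T0 on 8 of the 23 chromosomes.

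**Figure D1:**
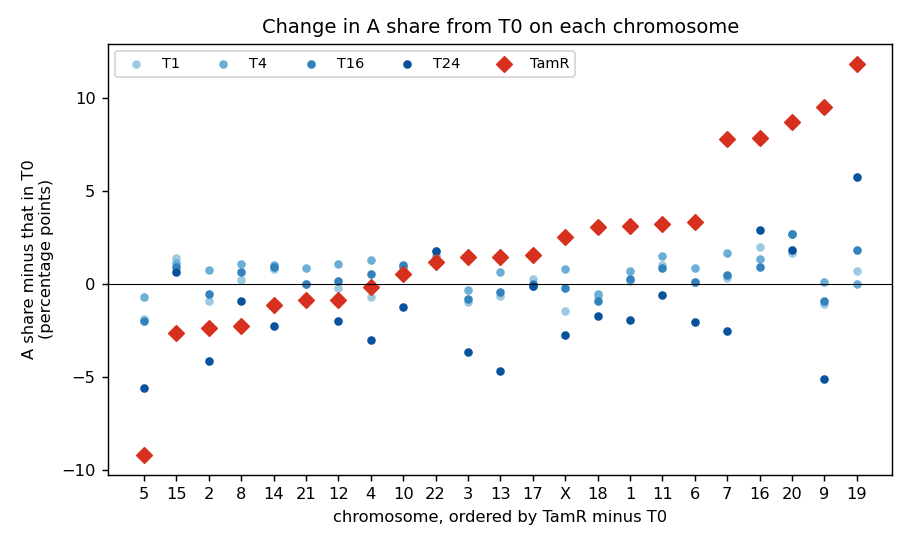
A share minus the A share in T0, in percentage points, on each of the 23 chromosomes (x axis, ordered by the TamR value). Dots are the 4 E2 libraries and diamonds are TamR. Chromosome 5 stands at the left with −9.22 points in TamR and −5.57 points in T24, and both differences share the T0 library.

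The fall came from the long arm. On 5q, A bins went from 645 of 1295 (49.8%) at T0 to 481 (37.1%) in TamR, below the 562 of T24, the lowest parental library. On 5p they went from 106 of 463 (22.9%) to 108 (23.3%), above the 91 to 106 of the 5 parental libraries by 2 bins. The mean score of the chromosome was −0.933 at T0, between −0.971 and −1.14 in the E2 libraries, and −1.71 in TamR. On the arms, the T0 and TamR means were 0.0115 and −1.09 for 5q and −3.57 and −3.43 for 5p.

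**Figure D2:**
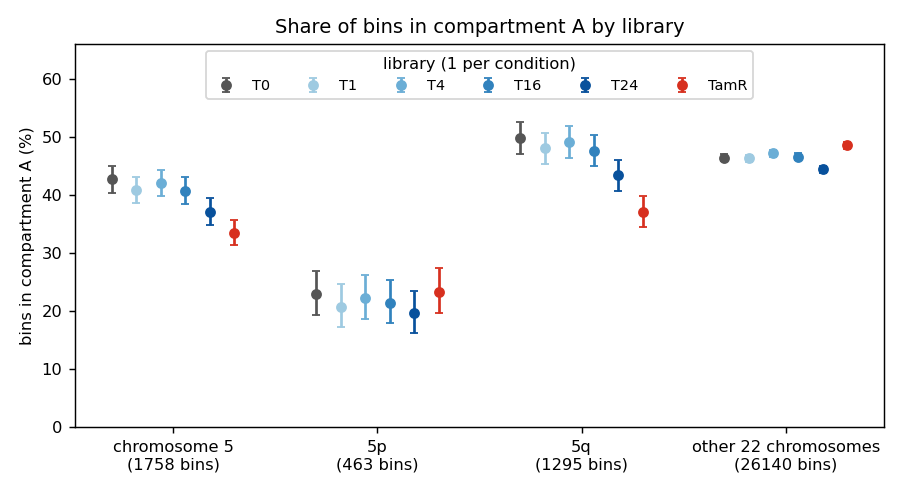
Percent of bins in compartment A (y axis) for chromosome 5, 5p, 5q and the other 22 chromosomes in the 6 libraries. Points are single libraries and bars are 95% Wilson intervals over bins. TamR is the lowest library on 5q (37.1%) and on chromosome 5 (33.5%), and the highest on the other chromosomes (48.5%).

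Movement ran mainly in 1 direction. From T0 to TamR, 233 bins went from A to B, 13.3% of the chromosome against 6.27% of all 27898 bins. The opposite change, B to A, took 71 bins, 4.04% against 7.67% of all bins. Put as a share of the compartment left, 31.0% of the T0 A bins of chromosome 5 were in B in TamR, against 12.5% on the other 22 chromosomes. For B bins, 7.05% were in A in TamR, against 14.8% elsewhere. The long arm held 208 of the 233 A to B bins, and 5p was balanced, with 25 bins from A to B and 27 from B to A.

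A stricter call asked that the 5 parental libraries share a compartment and that TamR lie in the opposite one. It kept 145 bins from A to B (8.25%, against 3.94% of all bins), of which 134 were on 5q. In the other direction it kept 50 bins (2.84%, against 6.13% of all bins), of which 30 were on 5q and 20 on 5p. The size of the shift was also read against the parental range of each bin. TamR lay below the lowest parental score by more than that range in 547 bins (31.1%, against 23.0% of all bins) and above the highest by more than it in 285 (16.2%, against 21.8%). On 5p this order was turned, with 86 bins low and 113 high.

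Most bins that left A had been weakly in A. Bins in A in all 5 parental libraries and B in TamR had a median parental score of 1.58 (quartiles 1.02 and 2.23) and a median TamR score of −2.38. The 496 bins in A in all 6 libraries had medians of 5.01 and 4.99. Of the 248 stable A bins with a parental mean of 5 or more, 0 were in B in TamR (95% Wilson upper limit 1.53%), and on the other chromosomes 13 of 5663 were. At lower strength the chromosome stood further from the rest. With a parental mean from 2 to 3, 41 of 99 bins were in B in TamR (41.4%, 32.2 to 51.3%), all of them on 5q, against 16.8% of 1381 bins elsewhere (14.9 to 18.9%). From 1 to 2 the shares were 50.0% of 126 bins and 31.1% of 1278, and from 3 to 5 they were 6.61% and 5.30%. Many of these bins are neighbours in long blocks, so the intervals are too narrow to compare the shares. The chromosome was chosen for its change in A share, so higher shares here were to be expected and were not tested.

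Sequence and gene content of the lost bins lay between those of stable A and stable B. Median G+C was 38.6% in the 145 A to B bins, 42.3% in the bins in A in all 6 libraries and 37.2% in the 919 bins in B in all 6. Protein-coding gene starts numbered 4.07 per Mb, 10.6 per Mb and 2.23 per Mb in the same order. Of the 145 bins, 71.0% held no gene start. These values were not particular to bins that left A. The 148 bins mixed among the parental libraries had 38.7% G+C, 4.39 starts per Mb and 69.6% without a start. The 50 B to A bins of the strict call had 38.9% G+C and 2.60 starts per Mb, and 82% held no start. The score itself followed G+C along the chromosome, with a Pearson correlation of 0.595 at T0, 0.611 at T1, 0.599 at T4, 0.612 at T16, 0.640 at T24 and 0.650 in TamR over 1756 neighbouring bins of the same libraries. The part of G+C in the loss of A was not tested.

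Along the chromosome, 2 stretches held most of the loss. They were picked after the values were seen, so their numbers are descriptions. Between 65 and 70 Mb, 39 bins were scored, and all 39 were in A in each of the 5 parental libraries, against 8 in TamR. Between 95 and 120 Mb, 250 bins were scored, and A bins numbered 117 at T0, 97 at T1, 105 at T4, 93 at T16, 68 at T24 and 12 in TamR. So the first stretch was flat over E2 and the second was lower at T24 than at any earlier time. Together their A bins fell by 136 and those of the whole chromosome fell by 162. Without both, chromosome 5 went from 595 to 569 A bins of 1469, a change of −1.77 points. T24 had 546 A bins there (−3.34 points), so outside the 2 stretches TamR lay within the parental range. Without 95 to 120 Mb alone the change was −3.78 points.

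**Figure D3:**
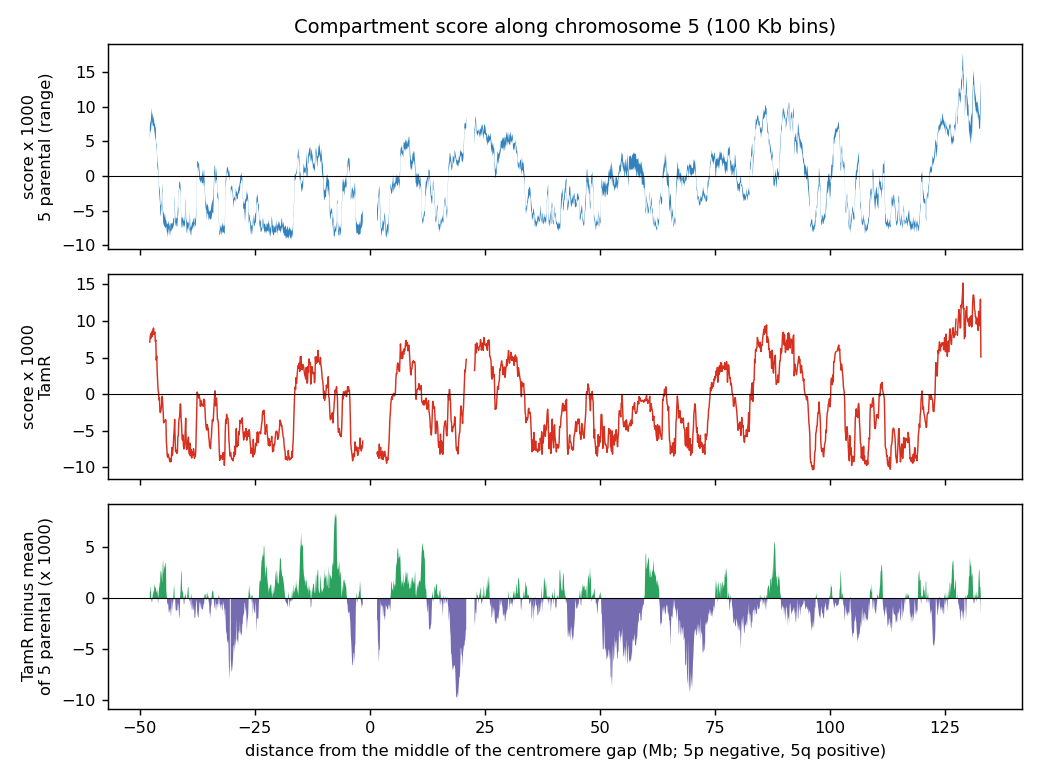
Compartment score (×1000) of the 100 Kb bins along chromosome 5, by distance from the middle of the centromere gap in Mb (5p to the left). The top panel shows the range of the 5 parental libraries, the middle panel TamR and the bottom panel TamR minus the parental mean, green above 0 and purple below. The deepest purple stretches lie about 20, 50 and 70 Mb into 5q, and the widest green stretches lie in the inner parts of both arms, a few Mb away from the gap, beside which TamR is again lower.

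Other stretches gained A. On 5p, 30 to 45 Mb went from 61 A bins of 150 at T0 (58 to 64 in the parental libraries) to 86 in TamR, while 10 to 20 Mb went from 25 of 99 (13 to 25) to 2. The near-equal total of 5p was thus made of a loss toward the tip and a gain toward the centromere. On 5q, 50 to 60 Mb went from 37 of 100 (34 to 39) to 57. At 135 to 140 Mb, within the gene-rich 5q31, A bins went from 39 of 50 (39 to 44) to all 50. These 3 gaining stretches were also chosen after their values were seen.

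Fewer compartments remained in TamR. A run of neighbouring bins of 1 sign was counted as a compartment, and A compartments numbered 55 at T0, between 43 and 48 in the E2 libraries and 34 in TamR. B compartments numbered 52, 41 to 46, and 32. In TamR the longest B compartment ran for 15.6 Mb from 96300001 to 111900000, within the second stretch, and the longest of T16 and T24 were longer (18.4 and 18.7 Mb). By the majority of the 5 parental libraries the chromosome had 39 A compartments, of which 12 were kept whole in TamR, 12 lost part of their bins and 15 lost all. The 15 lost whole held 109 bins with a median length of 3 bins, and 13 were on 5q. Of 37 B compartments, 23 were kept whole, 9 lost part and 5 lost all (15 bins). The largest A compartments lost whole were at 104100001-107200000 (31 bins, parental mean 1.62, TamR mean −2.18), 101900001-104000000 (21 bins, 1.39 and −3.25) and 117200001-118800000 (16 bins, 1.13 and −5.37). Bins that left A lay near a parental compartment border more often than those that stayed: 33.7% of 196 against 10.6% of 521 were within 2 bins of one. The same held for bins that left B, with 39.7% of 68 against 9.66% of 973. A border is where the score changes sign, and all bins of a short compartment lie near one. These shares are thus not separate from score strength and compartment length, and they were not computed for other chromosomes.

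The 145 A to B bins of the strict call formed 34 blocks, 29 of them on 5q. Single bins made up 13 blocks, and the 16 blocks of 3 or more bins held 122 of the bins. In the direction B to A, the 50 bins formed 22 blocks, none longer than 5 bins. Among the 23 chromosomes, chromosome 5 ranked 1 for the share of bins in A to B blocks and 21 for the share in B to A blocks. Its longest A to B block, 30 bins, ranked 2, after 1 of 32 bins on chromosome 2. The blocks named next are the 6 longest from A to B and the 4 longest from B to A.

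The longest block was chr5:65300001-68300000, with 30 bins. Its mean score was 2.49 at T0, 2.41 at T1, 2.51 at T4, 2.58 at T16, 2.37 at T24 and −4.39 in TamR. The 5 parental values thus lay between 2.37 and 2.58, and TamR lay 6.86 below their mean. In rank terms the block moved from the 66.5th percentile of all bins at T0 to the 28.7th in TamR. It held the starts of SREK1, a splicing regulator, MAST4, a microtubule-associated kinase, CD180, a Toll-like receptor homologue of B cells, and PIK3R1 (chr5:67511568-67597649, plus strand), which restrains and stabilizes the catalytic subunit of PI3K. The bin of the PIK3R1 start scored 3.95, 3.03, 2.78, 2.99 and 2.94 in the parental libraries in order of time and −3.66 in TamR. MAST4 had the lowest TamR score of these genes, −5.14, from 1.38 to 2.02 in the parental libraries.

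The change did not end at the borders of that block. The bin before it scored 3.32 at T0 and 0.632 in TamR, and the bin after it 5.23 and 0.0517, so both stayed in A at lower scores. Farther on, CCNB1 (cyclin B1, which drives entry into mitosis) and CENPH (a kinetochore protein) share a bin that went from a parental mean of 6.87 to 2.18. CDK7, the kinase of TFIIH and of the CDK-activating complex, went from 7.48 to 3.29, and RAD17, a checkpoint clamp loader, from 7.12 to 3.06. CDK7 and RAD17 were named after their values were seen. These 4 genes were in A in all 6 libraries. The run ends at 17 bins without a score, 68900001-70600000, in a region of segmental duplication.

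Between 95 and 120 Mb lay 4 of the 6 longest A to B blocks. At 104200001-105800000 (16 bins, with no protein-coding gene start) the mean score was 2.90 at T0, 1.79 at T1, 2.57 at T4, 2.22 at T16, 0.999 at T24 and −2.92 in TamR. At 102000001-103200000 (12 bins) it was 1.87, 1.59, 1.99, 1.37, 1.10 and −2.51. In both the lowest parental mean was that of T24. By the definition of a block, T24 was still in A and TamR was in B. The second block held PAM, which amidates peptide hormones, PPIP5K2, an inositol pyrophosphate kinase, NUDT12, a nudix hydrolase, GIN1 and MACIR.

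The other pair lay side by side, farther toward the end of the arm. The block 117200001-117800000 (6 bins, no gene start) had the lowest TamR mean of the named blocks. It scored 1.11 at T0, 1.18 at T1, 1.60 at T4, 1.27 at T16, 0.621 at T24 and −7.32 in TamR, and went from the 59.4th percentile to the 11.5th. Beside it, 117900001-118800000 (9 bins) scored 1.46, 1.07, 1.49, 1.29, 0.469 and −3.90. It held DTWD2, a tRNA-modifying enzyme, DMXL1, a factor of vacuolar proton pump assembly, TNFAIP8, a regulator of apoptosis, and HSD17B4, a peroxisomal enzyme of fatty acid oxidation that can also oxidize estradiol. The HSD17B4 bin scored 0.932, 0.343, 1.05, 0.621 and 0.123 in the parental libraries and −2.57 in TamR. It was thus near the border at T24 and well inside B in TamR.

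Near the distal end, 169600001-170800000 (12 bins) had a mean of 1.50 at T0, 1.69 at T1, 2.19 at T4, 1.81 at T16, 1.88 at T24 and −1.03 in TamR. It was the shallowest of the 6, and its E2 libraries were all above T0. Genes starting in it were LCP2, an adaptor of T cell receptor signalling, KCNIP1, KCNMB1, a subunit of calcium-activated potassium channels, GABRP, the π subunit of the GABA-A receptor, RANBP17, TLX3, a homeobox factor of neuronal fate, and C5orf58. TLX3 moved farthest, from a parental range of 2.80 to 4.09 to −0.536 in TamR. KCNIP1 and LCP2 share a bin at −0.259 in TamR, and the GABRP bin was at −0.677, both close to the border.

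**Figure D4:**
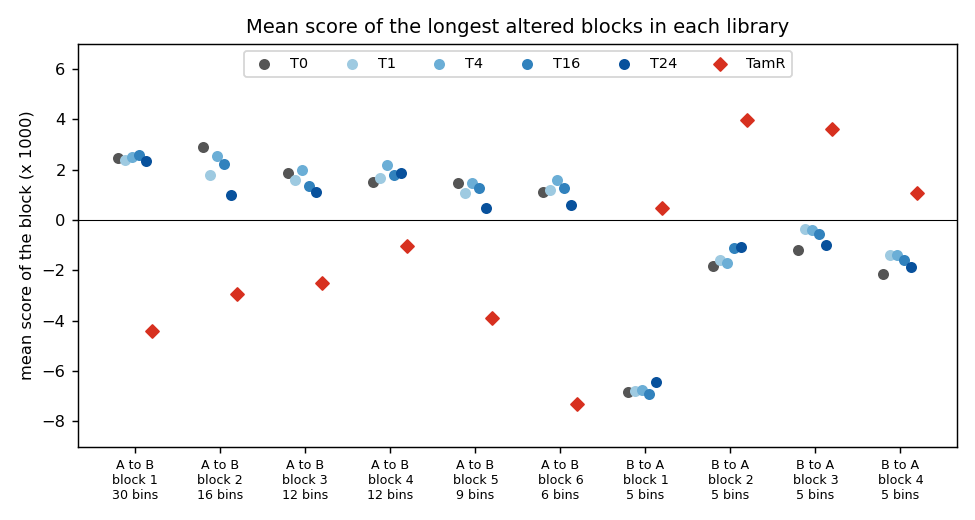
Mean score (×1000) of the 10 named blocks in each library. Circles are the 5 parental libraries and diamonds are TamR, and the line at 0 is the border between A and B. The 6 A to B blocks stand in the order 65300001, 104200001, 102000001, 169600001, 117900001 and 117200001 (block starts), and the 4 B to A blocks in the order 40300001, 32900001, 53900001 and 158900001. By the definition of a block, TamR lies across the border from all 5 parental libraries.

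Of the B to A blocks, chr5:40300001-40800000 on 5p made the largest move. It scored −6.82 at T0, −6.79 at T1, −6.73 at T4, −6.92 at T16, −6.45 at T24 and 0.487 in TamR, or from the 12.5th percentile to the 55.0th. It went from deep in B to just over the border. PTGER4, the EP4 receptor of prostaglandin E2, scored −7.24 to −6.44 in the parental libraries and 1.01 in TamR. PRKAA1 shares a bin with TTC33 that scored −3.87, −4.07, −3.58, −3.90 and −3.81 in the parental libraries and 0.0878 in TamR.

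The remaining B to A blocks, also of 5 bins each, started weaker in B. The block 32900001-33400000, without a gene start, went from −1.83 at T0 (−1.07 at T24) to 4.00 in TamR. At 53900001-54400000 the T0, T24 and TamR means were −1.20, −0.972 and 3.62. This block held ESM1, an endothelial proteoglycan, and the granzymes GZMK and GZMA of cytotoxic lymphocytes, with all 3 starts in 1 bin. At 158900001-159400000, with ADRA1B, an α1-adrenergic receptor, the means were −2.15, −1.87 and 1.09. TamR scores of the blocks at 32900001 and 53900001 thus lay between the quartiles of the bins in A in all 6 libraries (3.28 and 7.08), and those at 40300001 and 158900001 below them.

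The A share of the chromosome was also lower at T24 than at T0. From T0 to T24, 107 bins went from A to B (6.09%, against 3.67% of all bins) and 9 from B to A (0.512%, against 1.51%). The change in A share was −5.57 points, the largest fall of the 23 chromosomes, of which 18 were lower. By arm it was −6.41 points on 5q and −3.24 on 5p, where TamR differed from T0 by 0.432. A to B changes from T0 numbered 49 at T1, 35 at T4 and 55 at T16, with 16, 23 and 20 in the other direction. All these values and those of TamR share the T0 library, which had the highest A share of chromosome 5 among the 6.

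Few bins kept 1 change over the course. Miscellaneous bins, in the T0 compartment at 1 to 3 of the 4 E2 time points, numbered 121 (6.88%, against 5.70% of all bins). Only 24 bins were in A at T0 and in B at all 4 E2 time points (1.37%, against 0.785%), and 22 of these were in B in TamR. On the other 22 chromosomes 143 of 195 such bins were in B in TamR. In the opposite trend there were 3 bins (0.171%, against 0.624%). The 641 bins in A at all 5 parental time points and the 969 in B at all 5 made up the rest.

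The T24 and TamR changes were set side by side over the 751 A bins of T0. B in TamR but not in T24 were 147 bins, of which 62 lay between 95 and 120 Mb. B in both were 86 bins, of which 48 lay there. B in T24 only were 21. The same overlap was not counted on the other chromosomes, and both changes share the T0 library. It was therefore not read as particular to chromosome 5. The bins in B in both had a median score of 0.557 at T0, −0.545 at T24 and −1.58 in TamR. Those in B in TamR only had 1.94, 0.957 and −2.38. So the first set was close to the border at T0 and the second was higher at T0 and lower in TamR. The signs of the T24 and TamR medians follow from how the sets were defined. Over the whole chromosome, scores correlated with T0 across bins at 0.983 to 0.994 in the E2 libraries and 0.876 in TamR (0.831 on 5p and 0.886 on 5q).

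Gene starts followed the bins. Of 884 protein-coding genes, 868 had a scored start bin. In A in all 6 libraries were 526, and 59 went from A to B by the strict call (6.80% of the 868), 13 from B to A (1.50%) and 205 were in B throughout. Another 65 were mixed among the parental libraries. From the parental mean to TamR the median change of the gene bins was −0.709, with 575 lower and 293 higher. Genes that share a bin are not separate measurements. The lists below were chosen by function among genes of the chromosome.

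Growth factor and cytokine receptors were mostly higher in TamR. Of 12, 9 were higher in TamR, the median change was 0.791, none went from A to B, and 2 went from B to A. Of all 868 scored genes, 293 were higher, 59 went from A to B and 13 from B to A. OSMR, the oncostatin M receptor, scored −0.684, −0.791, −0.405, −0.361 and −1.89 in the parental libraries and 2.37 in TamR. GHR, the growth hormone receptor, lay between −1.83 and −0.813 in the parental libraries and at 0.0930 in TamR. NPR3 and LIFR, named after their values were seen, were mixed among the parental libraries and in A in TamR. FGFR4 and CSF1R, deep in A, had the largest falls, from parental means of 13.1 and 6.69 to 11.8 and 5.85. Most of the receptors that were higher lie on 5p or proximal 5q, in the stretches that gained A.

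Of 16 growth factor and cytokine ligands, 11 were lower, near the share of all scored genes (575 of 868), with a median change of −1.19, and none changed compartment by the strict call. FGF10, the mesenchymal factor of branching organs, was in B throughout and went from a parental mean of −2.70 (−2.88 to −2.14) to −8.14. FGF18 stayed in A and went from 5.03 to 1.88. TSLP had the largest rise, from −6.02 to −4.16, within B. EFNA5, an ephrin, was mixed among the parental libraries and in B in TamR.

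Among 17 genes of PI3K, MAPK and Wnt signalling, 1 went from A to B (PIK3R1) and 1 from B to A (PRKAA1). Of all 868 scored genes, 59 and 13 did. Of the 17, 11 were lower (median change −0.680), near the share of all scored genes (575 of 868, median −0.709). PPP2R2B, a regulatory subunit of protein phosphatase 2A, had the next largest fall, from −6.41 to −8.31 within B. MCC and WWC1 were mixed and then in B.

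None of 19 cell cycle and genome maintenance genes changed compartment, where 59 and 13 of all 868 scored genes did in the 2 directions. Of the 19, 13 were lower, near the share of all scored genes (575 of 868), with a median of −0.896 against −0.709. The largest falls were those of CCNB1 and CENPH above. PLK2, a polo-like kinase, went from 1.27 to 3.96. Of 23 transcription factors and chromatin regulators, 16 were lower (median −0.777), also near the share of all scored genes, and 1 went from A to B. That was HAND1, a factor of heart and trophoblast development, at 2.30 in T0, 0.539 to 1.11 in the E2 libraries and −2.64 in TamR. PRDM9, the meiotic recombination factor, went from −3.09 to −5.16 within B, and IRX1, a homeobox factor, went up from −7.03 to −3.58, also within B. NR3C1, the glucocorticoid receptor, and FOXI1 were near 0 and mixed in the parental libraries and in B in TamR, at −0.792 and −0.0817.

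No gene of the adhesion and matrix lists changed compartment, where 59 and 13 of all 868 scored genes did in the 2 directions. These lists fill few bins. The 5 classical cadherins of 5p were in B in all 6 libraries, and CDH10 went from −6.28 to −2.27, while CDH18 and CDH12 went down to −5.87 and −8.06. The 53 clustered protocadherin genes fill 8 bins of 5q31. All were in A in all 6 libraries and below their parental mean in TamR, with a median change of −1.24 over genes that share bins. The bin of PCDHGA11 to PCDHGC5 barely differed, at 3.737 in TamR against a parental mean of 3.739 (range 3.16 to 4.67). Of 16 matrix and integrin genes, none changed compartment and 11 were lower (median −0.618), near the share of all scored genes (575 of 868). FBN2 (fibrillin 2) and LOX (lysyl oxidase) had the largest falls, to −4.93 and −3.34 within B, and TGFBI, a matrix protein induced by TGF-β, went up from 3.01 to 6.01.

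Neuronal receptors and channels had the lowest median of the lists, −2.26. The share lower, 9 of 13, was near that of all scored genes (575 of 868). KCNIP1 and GABRP went from A to B. GRIA1, an AMPA receptor subunit, went from −4.55 to −8.48 and KCNN2, a potassium channel, from −4.32 to −7.09, both within B. DRD1, a dopamine receptor, went up from 5.05 to 7.71. Of 8 genes at breast cancer risk loci, none changed compartment by the strict call and 5 were higher. Of all 868 scored genes, 59 and 13 changed in the 2 directions and 293 were higher. The largest falls were those of FGF10 and MRPS30 (−6.40 to −7.24), and PDE4D, a cyclic AMP phosphodiesterase, went up from −5.24 to −1.39 within B. RAB3C was mixed among the parental libraries and in A in TamR at 0.0290.

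**Figure D5:**
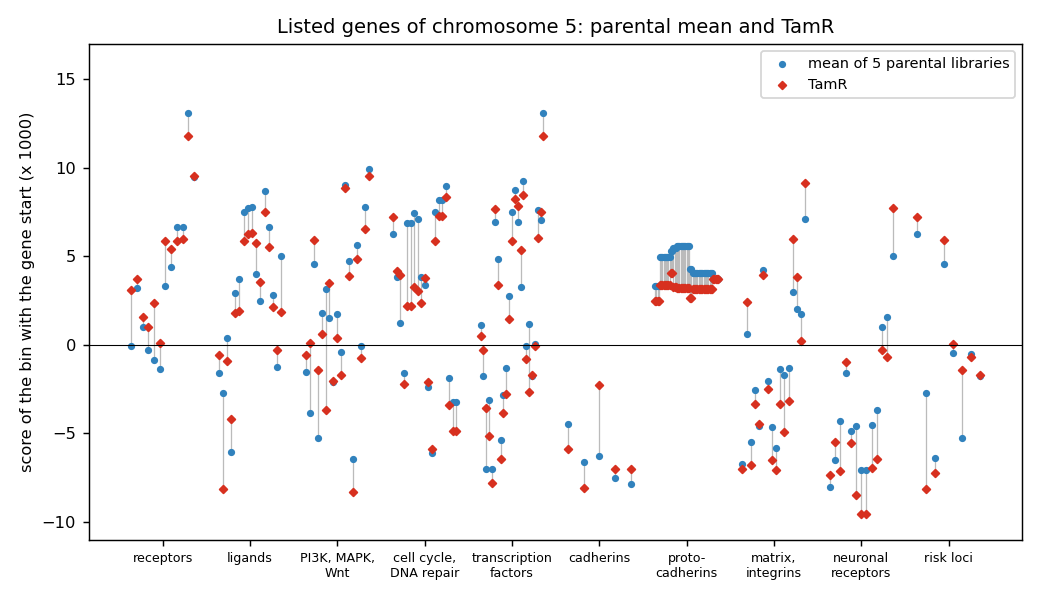
Score (×1000) of the bin that holds each listed gene's start, in 10 lists, as the mean of the 5 parental libraries (circles) and in TamR (diamonds), joined by a line. Genes stand in chromosome order within a list. Receptors mostly move up (9 of 12, against 293 of all 868 scored genes). The 53 protocadherin genes stay in A with a median change of −1.24, and some of them are level.

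The rule left out 52 bins with no score in at least 1 library. They were 30 bins at the centromere gap, the 17 bins at 68900001-70600000, 2 at the distal tip and 3 single bins. Of the 52, 4 had a score in some libraries. Just inside the rule, the bins on either side of the unscored bin 17500001-17600000 scored 0.0739 and −1.52 at T0 and −8.41 and −7.99 in TamR. Those next to the centromere gap scored −6.57 and −6.46 at T0 and −6.41 and −8.15 in TamR.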

How the data were processed

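TCC was run on 6 T47D libraries, 1 per condition, and grouped by the labels. Per the paper's methods, the authors aligned reads iteratively to hg19 with bowtie2, filtered them with HiCLib, built a matrix of 100 Kb bins, removed poorly covered bins, corrected the matrix iteratively, kept contacts between chromosomes and computed the first eigenvector. The deposited values are these scores, with 0 for a bin without one. They are relative within a library, no contact counts were used, and the depth behind a score is unknown. Whether replicate cultures were pooled is not given in the sources used here.

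From the deposited scores, compartments were taken by sign, blocks as unbroken runs of bins whose sign was shared by the 5 parental libraries and opposite in TamR, and gene starts from GENCODE lifted to GRCh37, in which the length of chromosome 5 (180915260) is that of the bins. Shares carry 95% Wilson intervals. With 1 library per condition no test was made. Code was tested on simulated data. Python 3.11.15, numpy 2.4.6 and pandas 2.3.3 were used. The chromosome, gene lists and rules were chosen with earlier results of these data known. Named by rule were the 6 longest A to B and 4 longest B to A blocks (ties by difference from the parental mean) with up to 8 genes each, list members that changed compartment, the 2 largest falls and the largest rise per list, and promoters of list members in named blocks, 1 of which is not reported here. Alternatives were other borders, windows and references, weak or centromeric bins left out, and libraries left out.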

Additional observations from a re-analysis of the deposited data

How the results depend on the processing

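The direction of the change on chromosome 5 held under each alternative run. Values within the main interval, or counts within 1.5 times the main, were found in 58 of the 86 alternatives. With the border at each library's median score, the T0 and TamR A shares were 47.1 and 36.3% for the chromosome (−10.8 points, again the largest fall), 53.7 and 40.0% for 5q, and 28.7% for 5p at T0. On 5p this border turned the change from a small rise into a small fall, to 25.9%. Leaving out the weakest bins (the lowest 10% of absolute scores in any of the 6) kept 1318 bins: the chromosome went from 37.2 to 33.6% (−3.64 points, still the largest fall), 5q from 45.4 to 40.0%, 5p from 15.2 to 16.3%, 55 bins went from A to B, 7 from B to A and 0 were miscellaneous, so most altered bins had a score near 0 in at least 1 library. Windows are fewer than bins by construction: at 500 Kb, 41 went from A to B, 12 from B to A and 21 were miscellaneous, and at 1 Mb these were 19, 7 and 8, with T0 shares of 39.2% for the chromosome and 46.2% for 5q. With T24 as reference 150 bins went from A to B. With T0 alone as reference the longest blocks were 56 bins (101900001-107500000) and 11 bins (53400001-54500000). Leaving out each parental library gave 145 to 175 A to B and 50 to 55 B to A bins, and leaving out each E2 time point gave 76 to 110 miscellaneous bins, the 76 without T24. The mean change of −0.776 was −0.685 against the mean of the parental libraries and −4.48 in percentile ranks. Chosen after seeing the data, leaving out 65 to 70 and 95 to 120 Mb gave a TamR share of 38.7% against 40.5% at T0. No paired analysis was possible because T0, TamR and each E2 time point come from single libraries. A score rests on an unknown number of contacts, copy number was not analysed here, and the scale of a score differs between libraries, so sizes across libraries are relative.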
